A study of Mus musculus with 8 samples.

Results

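The NF-kB system was described through 10 genes chosen by name: the subunits Nfkb1, Nfkb2, Rel, Rela and Relb, and the inhibitors Nfkbia, Nfkbid, Nfkbie, Nfkbiz and Tnfaip3. Of these, 8 had a row among the 18438 genes of the deposited table, and Nfkb2 and Nfkbie enter only the promoter search below. All 8 passed the filter on low values. RNA was sequenced from splenic T cells of C57BL/6 mice, all taken on day 7 of EAE (experimental autoimmune encephalomyelitis), in which immunization, here with the myelin protein MOG, leads to inflammation of the central nervous system. The 4 groups held 2 libraries each. Regulatory T cells (Treg) were sorted as CD4+ CD25hi YFP+ cells from mice labelled IRE1a-/- (KO) and from WT mice. Effector T cells (Teff) were sorted as CD4+ CD25- YFP- cells from KO mice and from WT mice. The IRE1a protein, product of Ern1, senses unfolded proteins in the endoplasmic reticulum. The labels used here give no age or sex of the mice, no driver of a deletion, not which cells carry it, and not whether each library is from its own animal. Each p-value below is therefore set against a spread between libraries that may be technical.

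NF-kB dimers are held in the cytoplasm by I-kappa-B proteins until a receptor signal activates the IKK kinases, which mark the inhibitor for destruction and free the dimer to enter the nucleus. NF-kB then raises the transcription of its own inhibitors, so their mRNA belongs both to the brake and to the output of the pathway. In T cells the pathway is engaged by the antigen receptor with CD28 and by TNF family receptors, and c-Rel, the product of Rel, is needed for normal Treg development in mice.

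The promoters of members are shown because self-induction of this pathway acts through kappa B letters at the genes themselves. RefSeq promoter sequences on GRCm38.p6 were found for 7 of the 10 genes, in 12 windows of 250 bases before a start. The motifs searched were GGGA followed by NTTNCC and GGGG followed by NTTNCC, where N is any base. They can overlap and were searched on both strands after the sequences had been seen. A match was present in 2.01% of all 32851 such windows, and in 6 of the 12 windows here, which belong to 5 of the 7 genes. The windows below run 5′ to 3′ on the gene's own strand and end at the base before the start, and capitals mark the matches. They lie at chr12:55492648-55492897 (Nfkbia), chr11:23770970-23771219 (Rel) and chr10:19015411-19015660 (Tnfaip3), all on the minus strand, and at chr19:5637291-5637540 (Rela) on the plus strand.
Nfkbia: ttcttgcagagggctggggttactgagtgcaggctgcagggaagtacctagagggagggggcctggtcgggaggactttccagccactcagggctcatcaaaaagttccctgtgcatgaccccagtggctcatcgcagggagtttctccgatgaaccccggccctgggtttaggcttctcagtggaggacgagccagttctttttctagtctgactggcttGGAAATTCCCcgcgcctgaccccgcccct
Rel: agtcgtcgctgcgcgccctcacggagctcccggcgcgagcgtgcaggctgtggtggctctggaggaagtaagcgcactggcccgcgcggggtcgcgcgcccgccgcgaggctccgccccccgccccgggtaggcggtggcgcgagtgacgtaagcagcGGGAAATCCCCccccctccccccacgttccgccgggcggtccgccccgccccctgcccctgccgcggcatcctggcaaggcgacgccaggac
Tnfaip3: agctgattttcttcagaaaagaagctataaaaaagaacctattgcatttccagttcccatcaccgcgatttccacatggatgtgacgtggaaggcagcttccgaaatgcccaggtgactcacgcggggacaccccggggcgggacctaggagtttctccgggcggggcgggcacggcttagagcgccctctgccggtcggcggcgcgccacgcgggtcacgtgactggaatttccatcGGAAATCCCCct
Rela: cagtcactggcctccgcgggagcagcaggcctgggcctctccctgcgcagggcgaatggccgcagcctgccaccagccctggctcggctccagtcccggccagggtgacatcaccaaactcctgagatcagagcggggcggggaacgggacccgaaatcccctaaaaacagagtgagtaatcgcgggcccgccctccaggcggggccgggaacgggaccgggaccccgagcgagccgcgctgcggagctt
The match in Nfkbia, GGAAATTCCC, lay 29 to 20 bases before the start. That in Tnfaip3, GGAAATCCCC, lay 12 to 3 bases before the RefSeq start. The GENCODE annotation begins Tnfaip3 at base 19015657 and Rela at base 5637483. By it, most of the Tnfaip3 window and part of the Rela window lie inside the gene. Rel held matches to both motifs that overlap at 92 to 82 bases before the start. Nfkbid held GGGACTTCCC in a window of a downstream start, and Nfkb2 held matches in 2 of its windows. The Rela window, shown for contrast, and the Nfkbie window held none, which says only that these letters are not in them.

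Values are the authors' normalized read numbers, which are not scaled by gene length, and library sums ranged from 17504097 to 18751258. Ern1 had 326 and 359 in KO Treg and 377 and 399 in WT Treg, and 458 and 453 in KO Teff and 559 and 616 in WT Teff. Its KO libraries lay below the WT libraries in both cell types without passing limma's test (adjusted p = 0.489 in Treg and 0.0902 in Teff), and since the removed part of Ern1 is not stated, a value over the whole gene does not test these labels. By Il2ra and Foxp3, the Treg sorts differed from the Teff sorts in the direction of their labels. Il2ra, a Treg marker, had 8887 and 8699 in KO Treg and 8943 and 9012 in WT Treg. In KO Teff Il2ra had 537 and 436, and in WT Teff 690 and 588. Foxp3, the Treg lineage factor, had 111 and 117 in KO Treg and 89.1 and 92.2 in WT Treg, against 2.06 and 8.29 in KO Teff and a listed 0 in both WT Teff libraries. At these low values Foxp3 was called higher in KO Teff than in WT Teff (log2 fold change 2.41, limma adjusted p = 0.0419). RNA of other cell types was also present, so Il2ra and Foxp3 do not show the purity of the sorts. The 11 macrophage and monocyte markers with a row, among them Vcam1, Csf1r and C1qa, summed to between 11696 and 12277 in KO Treg and between 20343 and 20938 in WT Treg. In KO Teff they summed to between 755 and 952 and in WT Teff to between 1283 and 2390.3, and no marker of this list was at 0 in both libraries of a group.

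Among the subunits, Nfkb1, which encodes a precursor that is processed to a DNA-binding partner, was the strongest per length of exon in every group. Nfkb1 had 8410.1 and 8205 in KO Treg, 9024 and 9028 in WT Treg, 5765 and 5166 in KO Teff, and 6603 and 6406 in WT Teff. Rel had 4971 and 4860.3 in KO Treg, 6257 and 6393 in WT Treg, 1879 and 1604 in KO Teff, and 2502 and 2419 in WT Teff. For both genes the 4 groups did not overlap and stood in the same order, with WT Treg highest, then KO Treg, WT Teff and KO Teff. Relb, a subunit best known from the noncanonical branch of the pathway, had 1803 and 1964 in KO Treg, 2496 and 2499 in WT Treg, 1081 and 1026 in KO Teff, and 1468 and 1415 in WT Teff. Rela, the most widely expressed activating subunit, had 1952.5 and 1843 in KO Treg, 2063 and 2044 in WT Treg, 1825 and 1739 in KO Teff, and 1603 and 1611 in WT Teff. Relb kept the order of Nfkb1 and Rel, whereas in Rela the lowest libraries were those of WT Teff.
On GRCm38, Nfkb1 spans chr3:135584655-135691547, Rel chr11:23736847-23770970 and Relb chr7:19606217-19629438 on the minus strand, and Rela chr19:5637483-5648130 on the plus strand.

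Among the inhibitors, Nfkbia encodes the I-kappa-B alpha protein that holds dimers in the cytoplasm. It had 20641 and 21157 in KO Treg, 27581 and 28387 in WT Treg, 7478 and 6073 in KO Teff, and 10926 and 10770.5 in WT Teff. Tnfaip3 encodes a ubiquitin-editing enzyme that shuts down signalling above IKK. It had 86105 and 85172 in KO Treg, 103422 and 98559.6 in WT Treg, 49965 and 36841 in KO Teff, and 52507 and 56067 in WT Teff. The KO Teff libraries of Tnfaip3 lay far apart, with an SD of 21.4% of their mean, against 0.770% in KO Treg, 3.40% in WT Treg and 4.64% in WT Teff. Nfkbid and Nfkbiz encode nuclear I-kappa-B proteins that modulate transcription at chosen targets, and Nfkbid promotes Foxp3 induction in developing mouse Treg. Nfkbid had 3009 and 3122 in KO Treg, 4070.1 and 3811 in WT Treg, 1807 and 1759 in KO Teff, and 2378 and 2164 in WT Teff. Nfkbiz had 8603 and 9956 in KO Treg, 9831 and 9402 in WT Treg, 5115 and 4716 in KO Teff, and 5199 and 5934 in WT Teff. Nfkbiz was the only member whose KO Treg and WT Treg libraries overlapped. On GRCm38, Nfkbia spans chr12:55489410-55492647, Tnfaip3 chr10:19000910-19015657 and Nfkbiz chr16:55811375-55838899 on the minus strand, and Nfkbid chr7:30421732-30428746 on the plus strand.

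**Figure D1:**
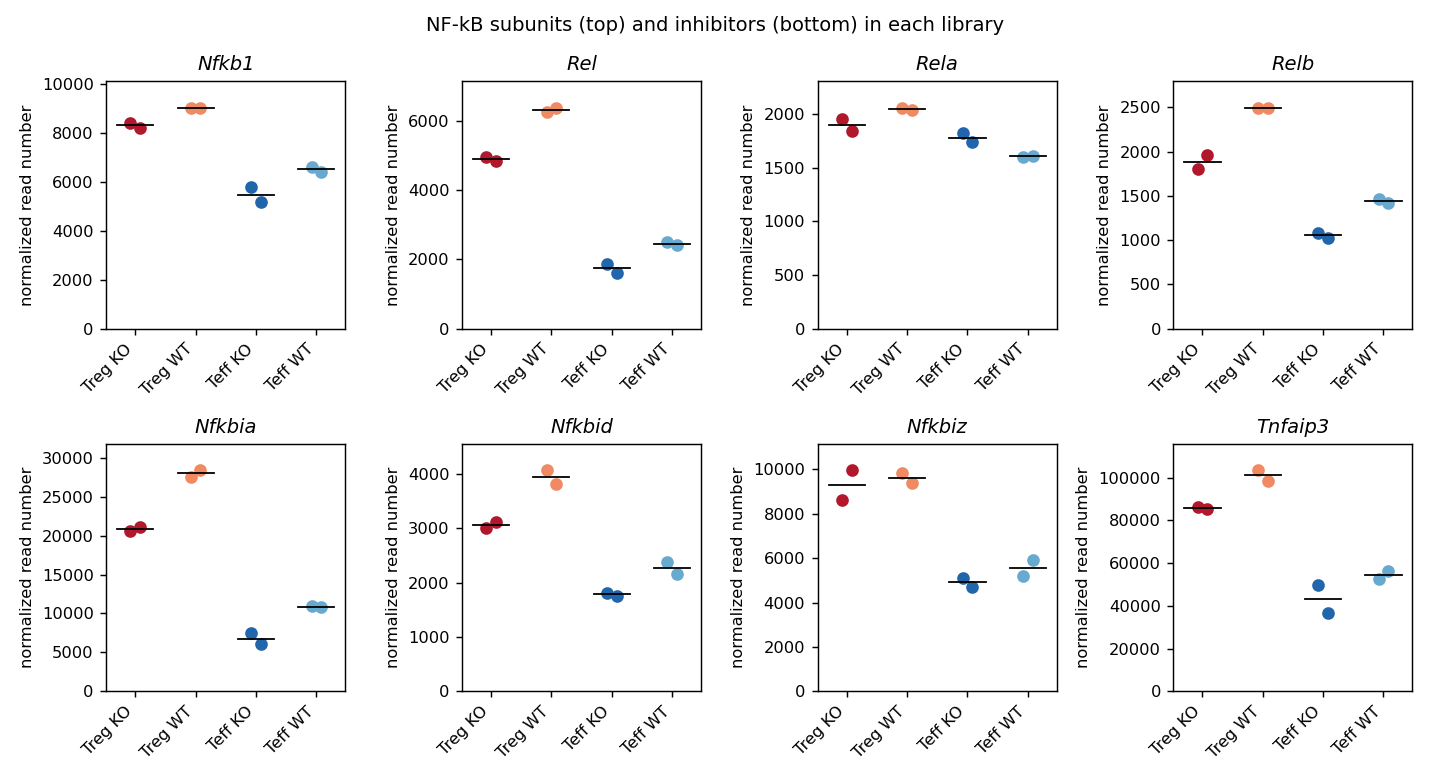
Normalized read number (vertical axes, each from 0) of the 4 subunits and the 4 inhibitors in every library; points are the 2 libraries of a group and bars their mean. The Treg libraries stand above the Teff libraries of the same genotype for all 8 genes, and the Treg and Teff levels of Rela lie closest together.

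Divided by merged exon length, Tnfaip3 averaged 18637 ± 144 per kb in KO Treg, 21978 ± 748 in WT Treg, 9446 ± 2020 in KO Teff and 11814 ± 548 in WT Teff (SD, n = 2 each). Nfkbia came second in each group, at 13244 ± 231 per kb in KO Treg, 17734 ± 361 in WT Treg, 4294 ± 630 in KO Teff and 6875 ± 69.9 in WT Teff (SD, n = 2 each). Among all 18438 genes ranked per kb, Tnfaip3 stood between 42 and 57 in the Treg libraries and between 107 and 154 in the Teff libraries. Nfkbia stood between 63 and 92 in Treg and between 164 and 284 in Teff. The other 6 members were lower than both in every group. Nfkbiz and Nfkb1 followed, and in KO Treg these neighbours, at 2242 ± 231 and 2014 ± 35.2 per kb, differed by less than the SD of Nfkbiz (SD, n = 2). Nfkbid came next in every group, and Relb, Rel and Rela were the lowest. The order was the same by longest transcript.

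Rel and Rela exchanged places between the groups. Rel was 0.926 and 0.959 times Rela per kb in KO Treg and 1.103 and 1.138 times in WT Treg. In KO Teff Rel was 0.374 and 0.335 times Rela, and in WT Teff 0.568 and 0.546 times. The 4 pairs of libraries did not overlap. The ratio of Nfkbia to Rel, in contrast, stayed in a narrow band. It was 19.6 and 20.6 per kb in KO Treg, 20.86 and 21.01 in WT Treg, 18.8 and 17.9 in KO Teff, and 20.7 and 21.1 in WT Teff. Within the sum of the 4 subunits per kb, Rela made up 17.0% and 16.1% in KO Treg and 15.5% and 15.3% in WT Treg. In KO Teff it made up 23.9% and 24.9%, and in WT Teff 18.5% and 19.1%. The KO libraries lay above the WT libraries in both cell types, and these ratios were not tested.

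**Figure D2:**
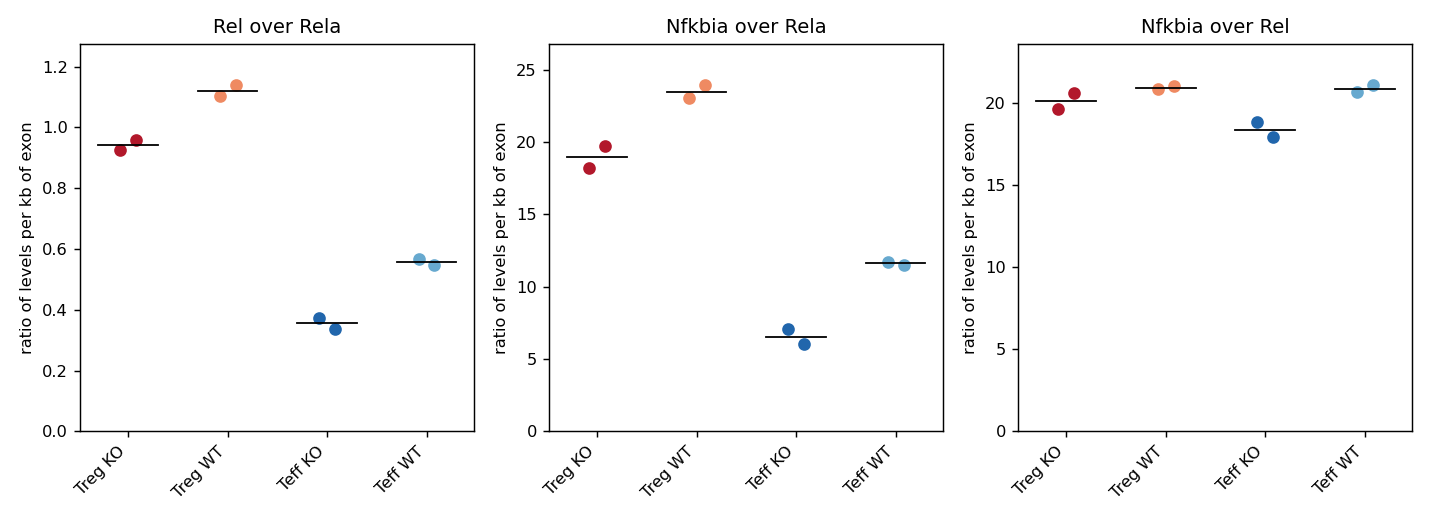
Ratios of levels per kb of exon (vertical axes, each from 0) of Rel over Rela, Nfkbia over Rela and Nfkbia over Rel in every library; points are libraries and bars the mean of 2. Both ratios over Rela differ between all 4 groups, while Nfkbia over Rel lies between 17.9 and 21.1 throughout.

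The labelled cell types were compared within each genotype, using the same libraries as the comparisons of KO with WT given after. In KO mice, Treg held more transcript than Teff of 7 of the 8 members, and Rela was the exception. In WT mice Treg held more of all 8. The background shares of all 13358 tested genes called higher in Treg were 15.7% in KO and 13.5% in WT (limma, adjusted p below 0.05). The median log2 fold change of the members was 0.88 in KO and 0.79 in WT, against 0 in KO and -0.0016 in WT over all genes. All 8 members had both Treg libraries above both Teff libraries in each genotype, as had 32.9% of tested genes in KO and 32.0% in WT.

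Rel and Nfkbia differed most between the cell types. Nfkbia rose by 1.63 on the log2 scale in KO Treg over KO Teff (SE 0.09, adjusted p = 2.80e-05) and by 1.37 in WT Treg over WT Teff (SE 0.09, adjusted p = 7.59e-05). Rel rose by 1.501 in KO (SE 0.08, adjusted p = 2.48e-05) and by 1.36 in WT (SE 0.08, adjusted p = 4.88e-05). Tnfaip3 rose by 1.00 in KO and 0.90 in WT, Nfkbiz by 0.91 and 0.79, and Relb by 0.84 and 0.79. Nfkbid rose by 0.78 in KO and 0.80 in WT, and Nfkb1 by 0.61 in KO and 0.47 in WT. Rela, the smallest, was higher by 0.35 in WT Treg (SE 0.06, adjusted p = 0.00574), while in KO the log2 difference was 0.09 with a 95% interval of -0.06 to 0.24 (adjusted p = 0.336). The calls of this paragraph held in all 16 alternative settings tried. Macrophage markers moved with this comparison, since 10 of the 11 with a row had both Treg libraries above both Teff libraries in either genotype, and erythroid markers as well, with 5 of 5 higher in Treg in either genotype. The erythroid markers summed to between 922 and 989 in KO Treg and between 134 and 174 in KO Teff, and to between 1133 and 1234 in WT Treg and between 125 and 257 in WT Teff. In the opposite direction, 4 of 5 NK cell and 5 of 7 dendritic cell markers had both Treg libraries below both Teff libraries in KO, and 5 of 5 and 6 of 7 in WT. The share of all tested genes with that order is not given here, so these counts stand without a background. The part of these cells in the members' levels was not tested. In bulk RNA, fewer cells of a type and less RNA per cell cannot be told apart.

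**Figure D3:**
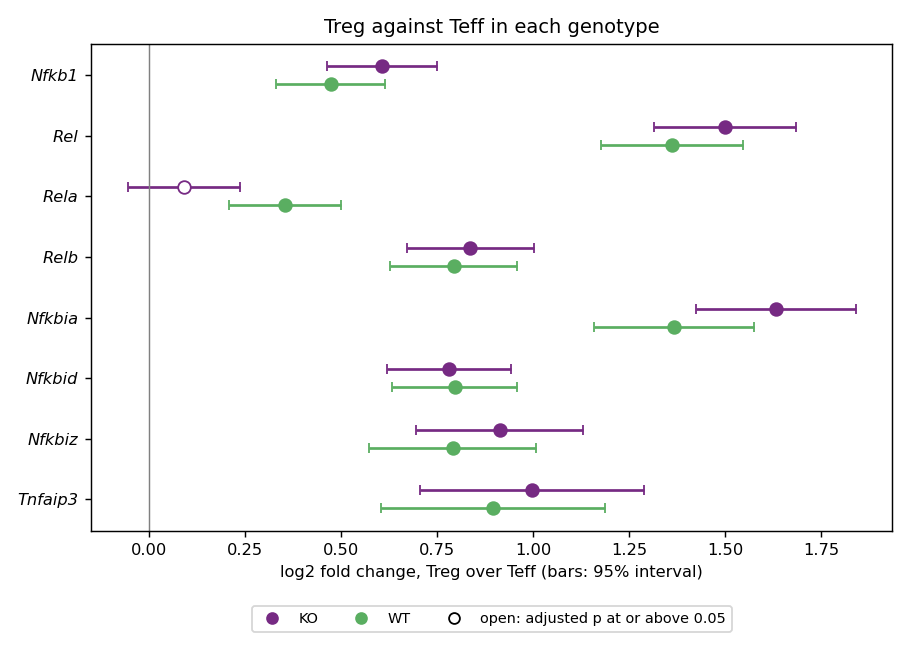
Log2 fold change of Treg over Teff (horizontal axis) for each member in KO and in WT mice, with 95% intervals from limma; open points did not pass at an adjusted p of 0.05. The interval of Rela in KO, the single open point, spans 0, and all other points lie between 0.35 and 1.63.

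Upstream and downstream genes of the pathway were called in both directions. Over all tested genes, 15.7% were called higher and 11.2% lower in Treg in KO, and 13.5% and 11.6% in WT. These shares are the background for each of the following lists of Treg against Teff. Of 12 genes from the receptor to IKK, 2 were called higher and 3 lower in KO Treg than in KO Teff, and 0 higher and 3 lower in WT. Prkcq, which encodes a protein kinase C of T cell receptor signalling, was among the lower genes in Treg, by -0.28 in KO and -0.46 in WT on the log2 scale, a call that held in 13 of 16 alternatives in KO. Of 10 TNF family and costimulatory receptors, 5 were called higher and 1 lower in KO, and 5 higher and 0 lower in WT. Tnfrsf9 averaged 3849 in KO Treg and 166 in KO Teff, and 4712 in WT Treg and 359 in WT Teff, and Tnfrsf4, Tnfrsf18 and Tnfrsf1b rose by at least 2.06 in either genotype.

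In the noncanonical branch, 3 of 5 genes were higher and 1 lower in KO, and 4 higher and 1 lower in WT. Map3k14, which encodes the NF-kB-inducing kinase, was the lower one, at 1358 in KO Treg and 2476 in KO Teff, and 1349 in WT Treg and 2239 in WT Teff (adjusted p = 0.000161 and 0.000475). Birc2 and Birc3, whose products help to degrade that kinase, were higher in Treg by 0.79 and 0.67 in KO and by 0.87 and 0.59 in WT. Of 16 other negative regulators 4 were higher and 0 lower in KO, and 4 higher and 1 lower in WT. Tnip1, which encodes a partner of the Tnfaip3 protein, was higher by 0.89 in KO and 0.94 in WT, and N4bp1 by 0.95 in KO and 0.59 in WT. Bcl3, a nuclear I-kappa-B relative, was higher in Treg by 0.40 in KO and 0.39 in WT (adjusted p = 0.0416 and 0.0474), and that call held in 7 of 16 alternatives in KO and 4 of 16 in WT.

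Of 26 reported target genes, 12 were higher and 6 lower in KO Treg than in KO Teff, and 13 higher and 6 lower in WT. Over all tested genes, 15.7% were called higher and 11.2% lower in KO, and 13.5% and 11.6% in WT. Cd83 averaged 2366 in KO Treg and 228 in KO Teff, and 3227 in WT Treg and 458 in WT Teff. Icam1, an adhesion molecule, averaged 2624 in KO Treg and 1213 in KO Teff, and 3866 in WT Treg and 1591 in WT Teff. Cd40lg, a helper signal for B cells, went in the other direction, with 468 in KO Treg and 2487 in KO Teff, and 434 in WT Treg and 2742 in WT Teff. Cd40lg was not the lowest of the list, in which the lowest log2 fold changes were -3.54 in KO and -3.98 in WT. The medians of the list were 0.45 in KO and 0.55 in WT.

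KO Treg were compared with WT Treg to see whether the labelled loss of IRE1a went with a different level of these genes. All 8 members had a fold change below 0, but only Relb passed. Of all tested genes 0.779% were called lower in KO Treg. Both KO Treg libraries lay below both WT Treg libraries for 7 of the 8, as for 25.9% of tested genes, and the median log2 fold change was -0.30, against -0.0083 over all genes. Relb averaged 1884 ± 114 in KO Treg and 2498 ± 2.15 in WT Treg (SD, n = 2 each), a log2 fold change of -0.41 (SE 0.07, limma adjusted p = 0.0445). The call was lost when any single library of the 8 was left out, with an adjusted p between 0.0554 and 0.234, and it held in 3 of 16 alternatives.

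Nfkbia had a log2 fold change of -0.42 in KO Treg with a 95% interval of -0.63 to -0.21, Rel of -0.36 (interval -0.55 to -0.18) and Nfkbid of -0.36 (interval -0.52 to -0.20). Their adjusted p-values by limma were 0.0768, 0.0830 and 0.0607, above the threshold over 13358 genes. Nfkbia and Rel passed when either KO Teff library was left out (adjusted p = 0.00880 and 0.0345 without KO Teff replicate 1, and 0.00885 and 0.0344 without replicate 2), libraries that enter this comparison only through the shared estimate of spread. In the authors' deposited table, 4 members were called lower in KO Treg, as were 1.87% of the 13824 genes with an adjusted p there: Nfkbia (adjusted p = 0.000334), Relb (0.00126), Nfkbid (0.00204) and Rel (0.00252). Tnfaip3, at -0.24 (interval -0.53 to 0.05), Nfkb1, at -0.12 (-0.26 to 0.02), Rela, at -0.11 (-0.26 to 0.03), and Nfkbiz, at -0.05 (-0.27 to 0.16), had intervals that include 0. When only the 2 Treg groups were fitted, Nfkbia, Rel and Tnfaip3 passed (limma adjusted p = 0.01365, 0.03555 and 0.04204). Relb did not pass in that fit (limma adjusted p = 0.06729). Macrophage markers stood beside these differences: 10 of the 11 with a row had both KO Treg libraries below both WT Treg libraries. Of the 6 Treg markers 4 did so too and 1 lay above, with sums between 48654 and 49386 in KO Treg and between 55518 and 55547 in WT Treg. Of the 6 general T cell markers 0 were lower in this way and 1 was higher. Lower were also 2 of 3 plasma cell, 3 of 7 dendritic cell and 2 of 5 erythroid markers. The same held for 3 of 6 neutrophil, 3 of 9 B cell and 1 of 5 NK cell markers. Higher were 2 B cell, 1 neutrophil, 1 NK cell and 1 of 2 CD8 T cell markers. Over all tested genes, 25.9% were lower in this way. The part of these markers' cells in the members' lower values was not tested.

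**Figure D4:**
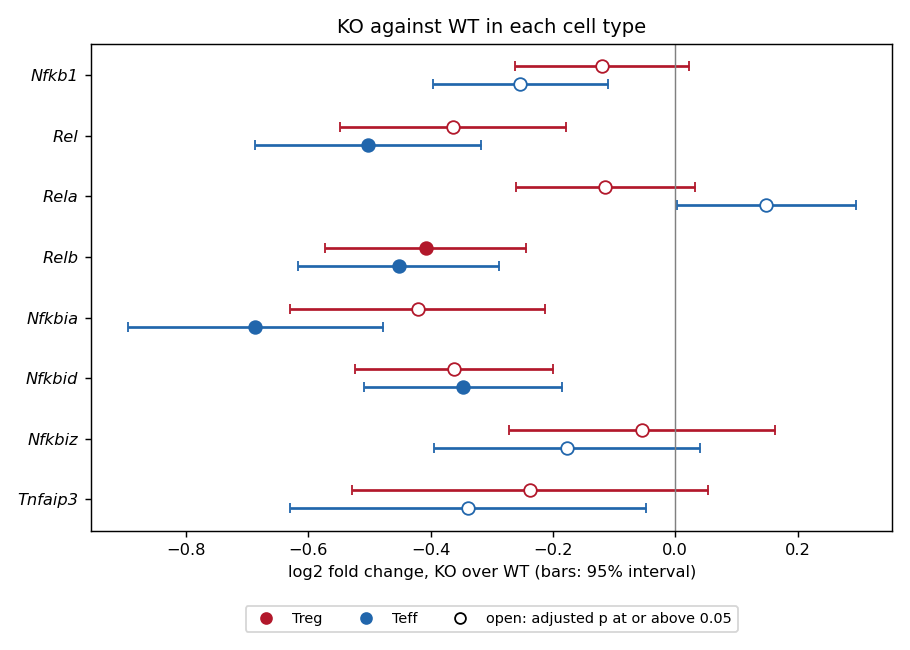
Log2 fold change of KO over WT (horizontal axis) for each member in Treg and in Teff, with 95% intervals from limma; filled points passed at an adjusted p of 0.05. Filled points are Relb in Treg and Nfkbia, Rel, Relb and Nfkbid in Teff, and Rela in Teff is the only point right of 0.

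KO Teff were compared with WT Teff in the same way. Of the 8 members 4 fell in KO Teff, Nfkbia, Rel, Relb and Nfkbid, where 5.08% of tested genes were called lower, and 0 of the 8 rose, where 1.84% were called higher. Both KO Teff libraries lay below both WT Teff libraries for 7 members, as for 27.4% of tested genes. The members' median log2 fold change was -0.34, against -0.019 over all genes. Nfkbia averaged 6775 ± 994 in KO Teff and 10848 ± 110 in WT Teff (SD, n = 2 each), a log2 fold change of -0.69 (SE 0.09, limma adjusted p = 0.00717). That call was lost in 1 of 16 alternatives, the fit of the 2 Teff groups alone (adjusted p = 0.0547).

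Rel averaged 1741 ± 195 in KO Teff and 2461 ± 58.6 in WT Teff (SD, n = 2 each), a log2 fold change of -0.50 (SE 0.08, limma adjusted p = 0.0136). The Rel call held in 12 of 16 alternatives. It was lost without WT Teff replicate 1 or 2 (log2 fold change -0.48 and -0.53). It was also lost without trend and robust shrinkage (limma adjusted p = 0.0575) and with only the 2 Teff groups fitted (0.0805). Relb averaged 1054 ± 38.3 in KO Teff and 1442 ± 37.4 in WT Teff (SD, n = 2 each), a log2 fold change of -0.45 (SE 0.07, limma adjusted p = 0.0130). The Relb call held in 12 of 16 alternatives. It was lost without KO Teff replicate 2 (log2 fold change -0.42) and without WT Teff replicate 1 or 2 (-0.43 and -0.48). It was also lost with only the 2 Teff groups fitted (limma adjusted p = 0.072). Nfkbid averaged 1783 ± 33.7 in KO Teff and 2271 ± 151 in WT Teff (SD, n = 2 each), a log2 fold change of -0.35 (SE 0.07, limma adjusted p = 0.0294). It was the least stable of these calls, held in 7 of 16 alternatives, and was lost without any single library other than WT Teff replicate 2 (adjusted p between 0.0548 and 0.122).

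Rela was the single member with both KO Teff libraries above both WT Teff libraries, as 22.4% of tested genes had, at 1782 ± 60.8 in KO and 1607 ± 5.93 in WT (SD, n = 2 each). Its log2 fold change of 0.15 (95% interval 0.00 to 0.30) did not pass (limma adjusted p = 0.225). Nfkb1 was close to the threshold, at -0.25 (adjusted p = 0.0532), and passed without KO Teff replicate 1 (-0.33, adjusted p = 0.0263). Tnfaip3 had a log2 fold change of -0.34 (interval -0.63 to -0.05, adjusted p = 0.171). Without KO Teff replicate 1, the higher of its KO libraries, that became -0.56 (adjusted p = 0.00697). Nfkbiz, at -0.18 (interval -0.40 to 0.04), did not pass. The authors' deposited table called 5 members lower in KO Teff, the 4 named here and Nfkb1 (adjusted p = 0.00910), as it did 6.27% of the 12818 genes with an adjusted p. Other cell types' markers moved as well. Of 11 macrophage markers 9, and of 7 dendritic cell markers all 7, had both KO Teff libraries below both WT Teff libraries. The dendritic markers summed to between 413 and 776 in KO Teff and between 1010.3 and 1696 in WT Teff, none at 0 in both libraries of either Teff group, and all 3 plasma cell markers with a row were lower in the same way. Of the 6 Treg markers 4 were lower and 1 higher in both KO Teff libraries, with sums between 6406 and 7205 in KO Teff and between 9029 and 10206 in WT Teff, and 4 of 6 general T cell markers were lower. Tnfrsf18 is in both the Treg marker list and the receptor list, and Cd28 in both the general T cell marker list and the receptor list. Of the remaining lists, 4 of 9 B cell, 2 of 5 NK cell, 2 of 5 erythroid and 2 of 6 neutrophil markers were lower in the same way. Of 2 CD8 T cell markers 1 was lower and 1 higher. Over all tested genes, 27.4% were lower in this way. The part of these cells was not tested.

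None of the 8 members passed the test of whether the genotype difference itself differed between Treg and Teff, a contrast in which limma called 0.0225% of tested genes. At an unadjusted p below 0.05 there was 1 member, Rela, against 10.4% of tested genes. Its KO effect was lower in Treg than in Teff by -0.26 on the log2 scale (95% interval -0.47 to -0.06, adjusted p = 0.370). Nfkbia came next, with a difference of 0.27 (interval -0.03 to 0.56, adjusted p = 0.539). Relb and Nfkbid had differences of 0.04 (interval -0.19 to 0.28) and -0.01 (interval -0.24 to 0.21).

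Of the reported NF-kB targets, some fell in KO and the others did not pass. In KO Treg 2 of 26 fell and 0 rose, where 0.779% of all tested genes were called lower. There 22 fold changes were below 0, as were 6904 over all 13358 genes, and the median was -0.25. Icam1 averaged 2624 in KO Treg and 3866 in WT Treg (log2 fold change -0.56, adjusted p = 0.00549), and Irf4, a factor of effector differentiation, changed by -0.56 (adjusted p = 0.0429). In KO Teff 10 of 26 fell and 0 rose, where 5.08% of all tested genes were called lower. There 23 fold changes were below 0, as were 7040 over all 13358 genes, and the median was -0.44. Irf4 had 896 and 881 in KO Teff and 1469 and 1774 in WT Teff (log2 fold change -0.86, adjusted p = 0.00438). Tnf, a cytokine that itself engages the pathway, had 503 and 476 in KO Teff and 810.0 and 784 in WT Teff (log2 fold change -0.70, adjusted p = 0.00647). Cd83 changed by -1.01 and Icam1 by -0.39. The near-identical genes Bcl2a1b and Bcl2a1d, named here after their values were seen because reads can be shared between them, were also among the 10, so their values are uncertain. Of the target calls named, Icam1 held in 13 of 16 alternatives in either cell type, Irf4 in 8 in Treg and in all 16 in Teff, and Cd83 in 14 in Teff.

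**Figure D5:**
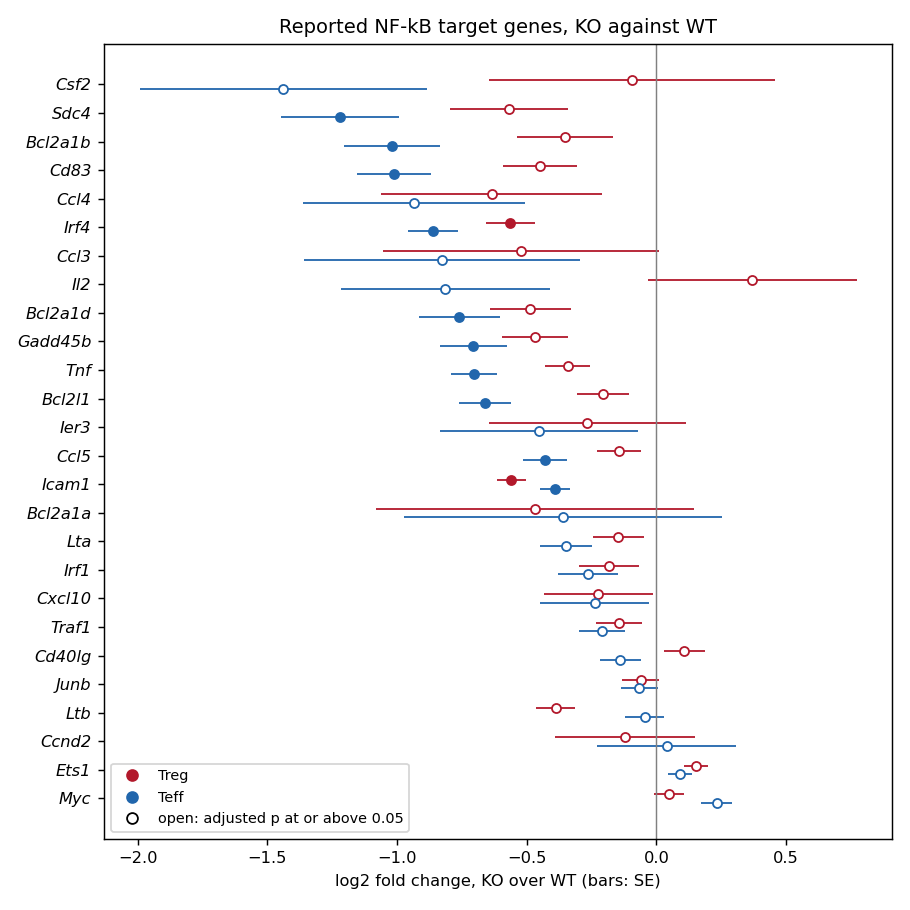
Log2 fold change of KO over WT (horizontal axis, bars: SE) of the 26 reported NF-kB target genes in Treg and in Teff, ordered by the change in Teff; filled points passed at an adjusted p of 0.05. Filled points are 2 genes in Treg and 10 in Teff, all left of 0, and the Treg points of these 10 lie left of 0 as well.

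Of the 10 TNF family and costimulatory receptors, 4 fell in KO Teff, 0 rose, and the other 6 did not pass, with 2 of the 10 fold changes above 0. For this and the next lists, 5.08% of all tested genes were called lower in KO Teff and 0.779% in KO Treg. Tnfrsf9 had 160 and 173 in KO Teff and 358 and 360.1 in WT Teff, and Tnfrsf4 had 801 and 678 in KO Teff and 1362 and 1333 in WT Teff (log2 fold change -1.11 and -0.87, adjusted p = 0.000768 and 0.00246). In KO Treg 0 of the 10 passed in either direction. Of the 12 genes from the receptor to IKK, 0 passed in KO Treg or in KO Teff, with medians of 0.05 and 0.04, and likewise 0 of the 5 noncanonical genes and 0 of Nfkbib, Bcl3 and Nfkbil1. Of 16 other negative regulators 2 fell in KO Teff and 0 passed in KO Treg. They were Tnip1, at 2467.5 and 2609.5 in KO Teff and 3004 and 3286 in WT Teff (adjusted p = 0.0377, held in 4 of 16 alternatives), and the weakly expressed Tnip3, at 1.91 and 1.78 in KO Teff and 16.4 and 46.3 in WT Teff (adjusted p = 0.0104).

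Immediate-early and heat shock genes, which also respond to tissue handling, were given the same test because Nfkbia, Nfkbiz and Tnfaip3 are induced as rapidly. Junb is both in this list and in that of the reported targets. In KO Teff 5 of 15 tested genes fell and 0 rose. Over all tested genes, 5.08% were called lower in KO Teff and 0.779% in KO Treg. Zfp36, an mRNA decay factor, had 17209 and 14635 in KO Teff and 23362 and 24266 in WT Teff, and Hspa1b, a heat shock protein gene, had 331 and 339.9 in KO Teff and 658 and 747 in WT Teff (adjusted p = 0.00681 and 0.00234). In KO Treg 1 of 15 fell, Hspa1b, with 340.3 and 341 in KO Treg and 732 in both WT Treg libraries (adjusted p = 0.00278). The list summed to 203477 and 211632 in KO Treg and 225010 and 224333 in WT Treg, and to 197474 and 179033 in KO Teff and 205593 and 206938 in WT Teff. The part of handling in the members' values was not tested.

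Across the 8 libraries, the genes outside the members whose log2 values were most like the members' mean were Sdc3, Lilrb4a, Zmiz2, Cnbd2 and Mgmt (Pearson r between 0.996 and 0.999, n = 8 libraries that share the cell type and genotype split). Among the members the likeness to that mean was 0.80 for Rela and at least 0.97 for the other 7. Lilrb4a was the gene most like Rel, P2ry10 the most like Tnfaip3, Col14a1 the most like Nfkbia and Sort1 the most like Nfkb1. Rabgap1l was most like Nfkbiz and Ptma most like Rela, and 2210016F16Rik was most like both Relb and Nfkbid. These correlations, between 0.984 and 0.999, were computed over samples that fall into separate groups and are descriptions only.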

How the data were processed

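Each of the 8 libraries was placed in its group by the cell type and genotype of its label. TRIzol RNA was selected on oligo(dT) beads and read as single ends of 50 bases on a DNBSEQ machine, per the labels' protocols, which name no step that marks the strand. The submitters' processing notes name Trim Galore 0.4.4, Salmon 0.14.1, R 4.0.3, DESeq2 1.28.1 and build mm10. The authors deposited 1 signal value for each gene in each library, a read number already normalized and seldom whole. At the commonest step only 21.3% to 23.2% of positive values were whole multiples (tolerance 0.02), so no count test was run. The authors also deposited log2 fold changes of KO over WT with adjusted p-values, used only where the text names their table.

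The test was limma 3.58.1 in R 4.3.3, run on the log2 of each value plus 1, with trend and robust shrinkage, 1 mean for each group and 4 residual degrees of freedom. It took in the 13358 genes that reached 10 in 2 or more libraries. Each of the 5 contrasts had its own Benjamini-Hochberg adjustment, and genes were called at 0.05. Fold changes on this scale understate those of weak genes. Two-sided 95% intervals come from the same fit. Library sums lay within a narrow range, but they are sums of values already normalized and so do not show sequencing depth. Precision rests on 2 libraries a group.

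Coordinates and merged exon lengths came from GENCODE M21 (GRCm38, the assembly of mm10), which held all 18438 identifiers. Promoters came from RefSeq. The members, gene lists and tests were chosen with earlier results of these data known. Named list genes were at most 4 called genes per list and contrast, by smallest p. The nearest gene by likeness had a mean of at least 100. Alternatives were 2 pseudocounts (0.5 and 5), no filter, library totals, quantile normalization, fits of the 2 groups compared, no trend or robust shrinkage, each library left out and a replicate block. Tables were made with pandas 2.3.3 and numpy 2.4.6 under Python 3.11.15, and figures with matplotlib 3.10.9.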

Additional observations from a re-analysis of the deposited data

How the results depend on the processing

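Of 632 values of single members under alternative settings, 584 kept their direction and their side of the threshold, 31 lost a call, 9 gained one and 8 changed sign. All Treg against Teff member counts were the same, 7 in KO and 8 in WT. Without 1 library, members called ranged from 0 to 2 for KO against WT in Treg and from 1 to 5 in Teff, and genes called from 43 to 192 in Treg, from 350 to 639 in Teff, from 0 to 3 for the difference of effects, from 2356 to 3561 for Treg against Teff in KO and from 2086 to 3308 in WT. A left-out library leaves its group with 1, assumed to vary like the others. For KO against WT in Treg, 0 members were called without a filter, with library totals, and without trend and robust shrinkage, against 3 when only the 2 groups were fitted. In Teff, fitting only the 2 groups called 0 members and 177 genes, and dropping trend and robust shrinkage called 2 members and 571 genes. For the difference of effects, genes called were 6 at pseudocount 5, 5 without a filter, 5 with library totals and 11 without trend and robust shrinkage. The cause of these shifts was not tested.

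Replicate numbers share no stated animal or batch. Deviations of same-numbered libraries correlated between -0.122 and 0.008, and with the replicate block 114 genes and 0 members were called for KO against WT in Treg, 688 genes and 4 members in Teff. Signs changed for values near 0. Nfkbiz in Treg ranged from -0.16 to 0.0504 when 1 library was left out, with the positive value without KO Treg replicate 1. For the difference of effects, Nfkbid ranged from -0.082 to 0.054 without 1 library and became 0.0044 with library totals, 0.012 without KO Treg replicate 1, 0.033 without WT Treg replicate 1, 0.0049 without KO Teff replicate 1 and 0.054 without WT Teff replicate 2. Relb ranged from -0.018 (without KO Treg replicate 2) to 0.106, and Tnfaip3 from -0.12 (without KO Teff replicate 2) to 0.321. Having 2 libraries a group limits what these values can show.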
